A study of Mus musculus with 4 samples.

Results

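Rows of the miRNA families miR-297, miR-466, miR-467 and miR-669 were taken from a table of mature miRNAs by name, which gave 78 of 1073 rows. Of these, 6 belonged to miR-297, 31 to miR-466, 13 to miR-467 and 28 to miR-669. Small RNA had been sequenced from wild type naive CD4+ T cells of mouse spleen. The cells were transfected with ASO or with its control CRO, activated with antibodies against CD3 and CD28, and collected after 48 h, with 2 samples per group. All 4 samples shared the genotype, the tissue and the activation, and the labels do not spell out ASO and CRO or name what ASO was directed at. Nothing in the labels tells whether a group's samples stem from different mice or cultures, so the spread behind the p-values may be a technical one. In every comparison ASO was set against CRO, to ask how the small RNAs of the activated cells differed after transfection with ASO.

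A miRNA gene is transcribed as a hairpin, and the enzymes Drosha and Dicer cut from it a 5p arm and a 3p arm. The arm that is loaded into an Argonaute protein pairs with messenger RNAs mainly through its seed, bases 2 to 8. Most genes of these families lie in the mouse within an intron of Sfmbt2, a Polycomb group gene that is imprinted and expressed from the paternal copy in extraembryonic tissue. The genes are arranged there as tandem copies, so that many hairpins come from a common transcript and several yield the same mature sequence. The cluster is known best from embryonic stem cells and placenta, where it is abundant. In other mouse cells miR-669a is known to repress MyoD, the regulator of muscle identity, and miR-466l to stabilise the Il10 transcript in macrophages. Sfmbt2 held 72 miRNA genes in the RefSeq annotation of GRCm38.p6, and all 72 were of the 4 families by symbol or synonym. A further 10 genes of the families lay elsewhere.

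RefSeq (GRCm38.p6) gave a mature sequence for 8 of the 78 rows. The genes of all 8 lie outside Sfmbt2, so no sequence of the cluster itself was examined. The 4 of the 8 rows that were counted well enough to be compared are shown because they hold CA or GU repeats. Capitals mark the seed.
miR-466q (chromosome 3): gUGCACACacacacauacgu
miR-466i-3p (chromosome 13): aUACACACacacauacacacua
miR-466k (chromosome 3): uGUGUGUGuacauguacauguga
miR-466j (chromosome 10): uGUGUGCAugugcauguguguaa
The first pair carry CA repeats and the second pair GU repeats, which can pair with each other along the stem of a hairpin. The motif UGUGUGU or ACACACA, read on the RNA strand only and with overlapping matches counted once, was present in 7 of the 8 member sequences. It was present in 16 of 1679 mature mouse sequences in all (0.953%), these 7 included. The other rows of the families are missing from that total, so the shares describe these 8 rows and not the cluster. The 8 members had 8 different seeds. Among mature miRNAs outside the families, the same seed was found only for miR-467h, in miR-668-5p. The other rows of the families had no sequence here, so seeds shared with them could not be seen.

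The authors deposited group means of normalized counts, and the counts of the single libraries were decoded from those means. Library a is the one with the larger size factor in its group, and the letters do not link libraries of different groups. Summed over all rows, with shared reads counted in each row that holds them, the ASO libraries had 10192717 and 10483405 counts and the CRO libraries 5617699 and 3300457. Depth therefore differed between the groups, and its part in the results was not tested. The lymphocyte miRNAs miR-142a, miR-150, miR-155 and miR-181a were abundant: the least counted, miR-181a-5p, had a base mean of 6560.0, the base mean being the authors' average normalized count over all 4 libraries. The 5 lymphocyte miRNAs summed to 1990313 and 2240071 in ASO, against 1930520 and 1852196 in CRO. Without miR-155-5p the sum was 1053258 and 1148019 in ASO, against 1076329 and 975762 in CRO, and overlapped. Of the 5 means, 2 were lower in ASO, those of miR-150-5p (164458 against 223918) and miR-181a-5p (5112 against 8009). None of the markers fixed for other cells was at 0. The summed normalized count of 4 erythroid miRNAs was 1655 and 1419 in ASO, against 2429 and 2481 in CRO, with all 4 lower in ASO. It was 5599 and 5669 in ASO against 6189 and 7239 in CRO for 2 myeloid miRNAs, and 4919 and 5107 against 6356 and 5968 for 6 epithelial ones, with all 8 means lower in ASO. The 2 endothelial miRNAs summed to 1687 and 2334 in ASO, against 1935 and 1399 in CRO. The erythroid, myeloid and epithelial sums and that of all 5 lymphocyte miRNAs did not overlap between the groups, while the endothelial sum did. The part of these cells in the results that follow was not tested. In such bulk samples fewer cells of a type and less RNA per cell cannot be told apart.

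Ratios were taken where the base mean was at least 10, which left 59 of the 78 rows and 482 of all miRNAs. The authors' deposited table called none of the 59 rows at an adjusted p of 0.05 and 13 of the 482 miRNAs (2.70%). A raw p under 0.05 was found in that table for 4 of the 59 rows and for 30 of the 482 miRNAs (6.22%). A limma fit of the decoded libraries, on log2(normalized count + 1), likewise called none of the 59 rows at an adjusted p of 0.05, where it called 15 of the 482 (3.11%). At an unadjusted p it put 10 of the 59 higher in ASO, where 5.60% of all miRNAs were, and 1 lower, where 6.64% of all were. What follows describes levels and their direction in these 4 libraries. No difference of a single row held after adjustment.

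The mean was higher in ASO than in CRO for 52 of the 59 rows, against 53.1% of all 482 miRNAs. The median log2 ratio of ASO over CRO was 0.38 over the 59 rows and 0.041 over all 482. Among the 423 tested miRNAs outside the families, 204 had a higher mean in ASO and the median was -0.015. Within a group the rows also shifted together. Library a was the higher one for 47 of the 59 rows in ASO and 49 in CRO, against 232 and 251 of all 482. The median log2 ratio of library a over b was 0.19 in ASO and 0.41 in CRO, against -0.018 and 0.027 for all 482. The median of 0.38 between the groups was thus below that between the CRO libraries. Both ASO libraries lay above both CRO libraries for 28 of the 59 rows, against 23.2% of all miRNAs. They lay below both CRO libraries for 1 row, against 18.7% of all, and the groups overlapped for 30 rows. The rows are not independent, because most of them share a host transcript and some hold the same reads. When rows with identical values were counted once, 51 remained, of which 44 had a higher mean in ASO, with a median of 0.40. In 25 of the 51 both ASO libraries lay above both CRO libraries.

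For sums over rows, rows with identical values were counted once, and so were rows of an arm whose reads differed by less than 5%, such as miR-466e-3p, miR-466b-3p and miR-466a-3p. This merging of near-identical rows was chosen after the values were seen. The families then had a summed normalized count of 41287 and 33444 in ASO, against 36086 and 24569 in CRO. This was 0.659% and 0.454% of the ASO libraries and 0.502% and 0.414% of the CRO libraries. The mean of the sum was 1.23-fold higher in ASO, and the groups overlapped. With near-identical rows kept apart, the sum was 57458 and 45238 in ASO, against 48520.1 and 33788 in CRO.

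By family, the median log2 ratio was 0.47 for miR-669, 0.42 for miR-466, 0.40 for miR-467 and 0.18 for miR-297. The mean was higher in ASO for 20 of 21 miR-669 rows, 19 of 24 miR-466 rows, 9 of 9 miR-467 rows and 4 of 5 miR-297 rows. Only the summed level of miR-467 separated the groups, with 6564 and 5852 in ASO against 4751 and 4647 in CRO. As a share of the library it separated them narrowly, with 0.105% and 0.0794% in ASO against 0.0661% and 0.0784% in CRO. The sum of miR-466 was 11928 and 8992 in ASO, against 9682 and 6922 in CRO, and with near-identical rows kept apart 26787 and 19918 against 20926 and 15447. That of miR-669 was 22156 and 18102 in ASO, against 21180.4 and 12462 in CRO. For miR-297 it averaged 595 in ASO and 525 in CRO. Apart from miR-467, library a of CRO or, for miR-297, library b of CRO reached above the lower ASO library. Among the families, miR-297 had the smallest median of the ratios, and it rested on 3 identical 3p rows and 2 sparse 5p rows.

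**Figure D1:**
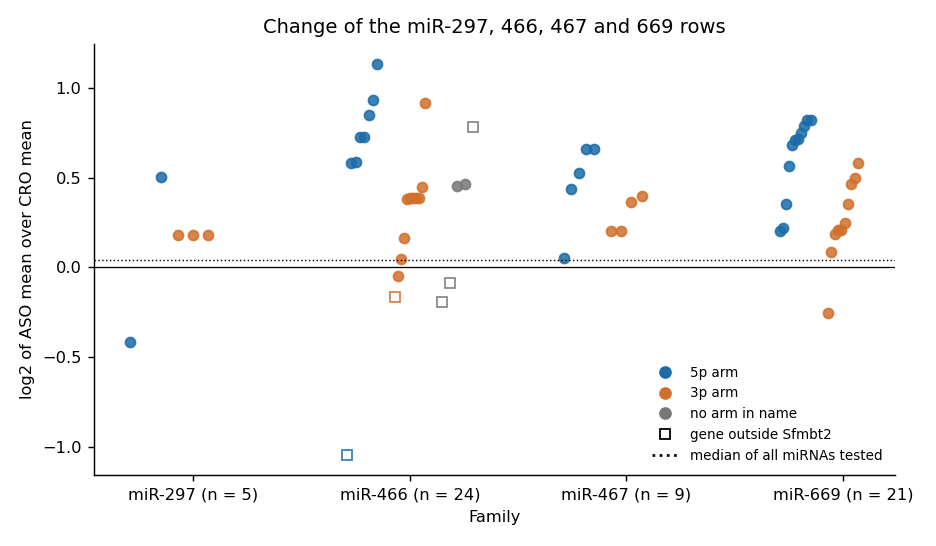
Log2 ratio of the ASO mean over the CRO mean (vertical axis) for the 59 rows with a base mean of at least 10, by family (horizontal axis). Each point is 1 row, blue for 5p arms, orange for 3p arms, grey where the name gives no arm, and open squares mark genes outside Sfmbt2; the dotted line is the median of all 482 miRNAs (0.041). Most blue points lie above most orange points, and the lowest square, at -1.05, is miR-466i-5p.

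In these libraries the 5p arms had higher ratios of ASO over CRO than the 3p arms. Over 26 tested 5p rows the median log2 ratio was 0.66, and 24 had a higher mean in ASO. Over 28 tested 3p rows it was 0.23, and 25 had a higher mean in ASO. Both ASO libraries lay above both CRO libraries for 20 of the 26 5p rows (76.9%) and for 6 of the 28 3p rows (21.4%). Outside the families the arms hardly differed: the median was 0.017 over 186 5p rows, 19.4% of which had both ASO libraries above, and -0.012 over 181 3p rows, with 22.7% above. The comparison of the arms was not tested, since the rows are not replicates.

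The sums over each arm showed the same order. The 5p rows summed to 10505 and 10301 normalized counts in ASO, against 7607 and 7662 in CRO, a level 1.36-fold higher in ASO. The 3p rows summed to 30229 and 22678 in ASO, against 27979 and 16568 in CRO, with a mean 1.19-fold higher in ASO. On this scale the libraries of a group almost coincided for the 5p sum, and the groups stood apart. As a share of the library the 5p sum was 0.168% and 0.140% in ASO, against 0.106% and 0.129% in CRO. The groups then stayed apart, with wider gaps between the libraries of a group. For the 3p sum the libraries of a group differed by 0.41 on the log2 scale in ASO and by 0.76 in CRO, and the groups overlapped. The 3p sum was 2.88 and 2.20 times the 5p sum in ASO, against 3.68 and 2.16 times in CRO, so the ratio of the arm sums did not separate the groups.

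**Figure D2:**
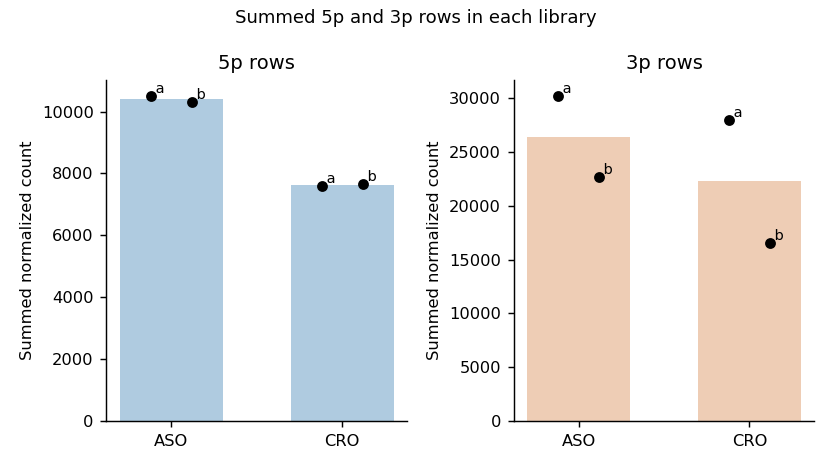
Summed normalized count (vertical axes, each starting at 0) of the 5p rows (left) and the 3p rows (right) of the 4 families, with identical and near-identical rows counted once. Points are the libraries a and b of ASO and of CRO, and bars are their means. The 5p points of ASO (10505 and 10301) lie above those of CRO (7607 and 7662), while the 3p points overlap.

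The families differed in which arm was the more counted, on a scale of normalized counts that is not adjusted for length. In miR-466 the 3p sum was 14.9 and 11.5 times the 5p sum in ASO, against 17.1 and 16.0 times in CRO, and with near-identical rows kept apart 35.7 and 27.5 times against 39.3 and 37.9 times. In miR-669 it was 3.58 and 2.76 times in ASO, against 4.62 and 2.62 times in CRO. In miR-467 the 5p sum was the larger, and the 3p sum was 0.323 and 0.221 times the 5p sum in ASO, against 0.428 and 0.214 times in CRO. With near-identical rows kept apart it was 0.582 and 0.397 times, against 0.779 and 0.392 times. By hairpin, the 5p arm was the more counted in miR-467c and miR-467e, and the 3p arm in miR-467a and miR-467d. In miR-297 the 3p sum was 22.7 and 13.0 times the 5p sum in ASO, against 13.9 and 21.0 times in CRO. Of these ratios, that of miR-466 alone was lower in both ASO libraries than in both CRO libraries. The 5p sums of miR-466, miR-467 and miR-669 separated the groups, while that of miR-297 overlapped, with 28.3 and 37.3 in ASO against 33.3 and 25.1 in CRO. The 3 sums that separated were 715 and 683 in ASO against 506 and 388 in CRO for miR-466, 4960 and 4787 against 3325 and 3825 for miR-467, and 4832 and 4819 against 3765 and 3438 for miR-669. As a share of the library the 5p sum of miR-467 was 0.0791% and 0.0649% in ASO, against 0.0463% and 0.0645% in CRO.

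The most counted 5p row was miR-669c-5p, with 3842 and 3763 normalized counts in ASO against 3087 and 2871 in CRO. Both ASO libraries were above both CRO libraries, at a log2 ratio of 0.35 (limma 0.35 ± 0.21 SE). The 5p arm of miR-467c had 2086 and 2013 in ASO, against 1219 and 1805 in CRO. That of miR-467e had 1511 and 1633 in ASO, against 1271 and 911 in CRO. In both, ASO was higher without overlap, and the CRO libraries lay further from each other than the ASO libraries. Next came miR-467a-5p, whose row equals that of miR-467b-5p, with 739.7 and 681 in ASO against 468 and 431 in CRO (log2 ratio 0.66). The 5p arm of miR-467d stood out from these. It had 622 and 461 in ASO against 367 and 677 in CRO, so that the CRO libraries held both the lowest and the highest value, and its log2 ratio was 0.052.

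The 3 rows with a raw p under 0.05 that were higher in ASO were all 5p arms. The authors' raw p under 0.05 with a higher ASO mean was found for 2.07% of all miRNAs. miR-466h-5p had 449 and 443 in ASO, against 269 and 198 in CRO. Its log2 ratio was 0.94 (authors' deposited table, adjusted p = 0.93), and limma gave 0.95 ± 0.26 (SE, adjusted p = 0.14). miR-669a-5p and miR-669p-5p, which share a row of values, had 475 and 497 in ASO, against 274 and 277 in CRO. Their log2 ratio was 0.82 (authors' deposited table, adjusted p = 1), and limma gave 0.82 ± 0.23 (SE, adjusted p = 0.16). In these rows the gap between groups was wider than the gap between the libraries of either group. The largest log2 ratio, 1.14, belonged to miR-466c-5p, a sparse row with 24.0 and 21.1 in ASO against 11.5 and 8.98 in CRO.

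The abundant 3p rows were also higher in ASO on average, with wide gaps within each group. miR-669a-3p, whose row equals that of miR-669o-3p, was the most counted of all, with 16065 and 12389 in ASO against 16179.8 and 8461 in CRO. Its log2 ratio was 0.21 (limma 0.27 ± 0.33 SE), and the highest and the lowest library were both CRO. miR-466b-3p, equal to miR-466c-3p and miR-466p-3p, had 7479.5 and 5495 in ASO, against 5641 and 4297 in CRO (log2 ratio 0.38). miR-467a-3p had 1284 and 843 in ASO, against 1166 and 679 in CRO (log2 ratio 0.20). miR-669f-3p had 777 and 546 in ASO, against 842 and 322 in CRO (log2 ratio 0.19). In each of these, 1 CRO library reached above the lower ASO library. Above a base mean of 500, a level chosen after the values were seen, all 14 3p rows, 9 of them distinct, overlapped between the groups, at log2 ratios of 0.16 to 0.38, against 59.6% of all 166 miRNAs at that level. Among the 9, miR-466e-3p, miR-466b-3p and miR-466a-3p differed by less than 5% of their reads, as did miR-467a-3p and miR-467d-3p. They are not separate measurements. Of the 6 5p rows at that level, 5 of them distinct, 5 had both ASO libraries above both CRO libraries, against 22.3% of all, and their log2 ratios reached 0.66.

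The libraries of a group lay further apart for the 3p than for the 5p rows in ASO, and about as far apart in CRO. The median absolute log2 ratio between the libraries of a group was 0.17 in ASO and 0.41 in CRO for the 5p rows, and 0.44 and 0.46 for the 3p rows. For all 482 miRNAs it was 0.29 in ASO and 0.44 in CRO. Library a was the higher one for 26 of the 28 3p rows in ASO and for 23 of 28 in CRO. It was the higher one for 16 and 21 of the 26 5p rows, and for 232 and 251 of all 482 miRNAs. Most 3p rows were thus higher in the same library of their group.

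**Figure D3:**
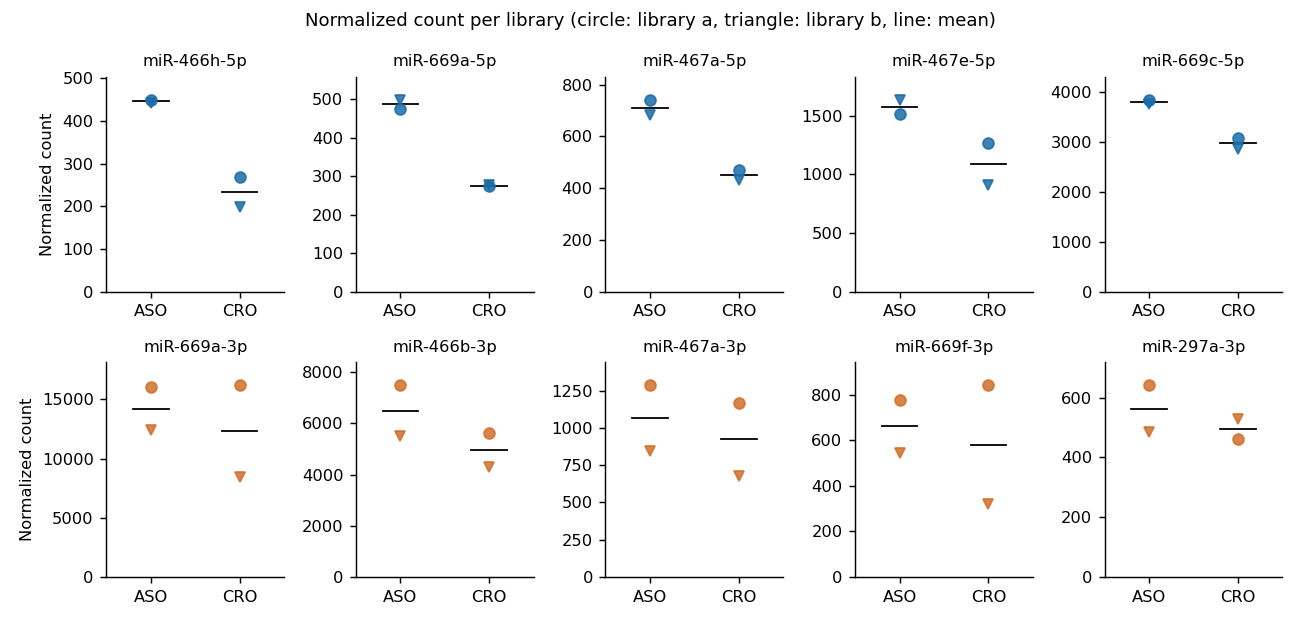
Normalized count (vertical axes, each starting at 0) in ASO and CRO for 5 5p rows (top, blue) and 5 3p rows (bottom, orange). Circles are library a, triangles library b, and the line is the mean of the group. In the top row every ASO point lies above every CRO point, as for miR-466h-5p (449 and 443 against 269 and 198), and in the bottom row the groups overlap. The rows were picked for display, and miR-467d-5p, which overlapped, is not among them. Over all tested rows both ASO libraries lay above both CRO libraries for 20 of 26 5p rows and 6 of 28 3p rows.

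Within a hairpin both arms come from the same precursor, and 21 hairpins had both arms at a base mean of at least 10. The log2 ratio of the 5p arm was above that of the 3p arm in 18 of the 21 (85.7%), with a median difference of 0.34. Outside the families it was above in 56 of 114 hairpins (49.1%), with a median difference of -0.0021. Of the 21 hairpins, 8 shared an identical row with another of them, and among the remaining 13 the 5p ratio was above in 11, with a median difference of 0.21. Leaving out also the hairpins that shared a near-identical row left 9, with the 5p ratio above in 8. The 5p arm was the more counted arm in 8 of the 21 hairpins.

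The largest differences were those of miR-466h, with a log2 ratio of 0.94 for the 5p and -0.048 for the 3p arm, and of miR-669h, with 0.68 and -0.26. The log2 of the 5p over the 3p count of miR-466h was 3.34 and 3.39 in the ASO libraries, against 2.43 and 2.32 in the CRO libraries. In miR-669h the arms had base means of only 16.4 and 16.6. The 5p ratio was below the 3p ratio in miR-297b (-0.41 and 0.18), miR-466i (-1.05 and -0.17) and miR-467d (0.052 and 0.20). Taken library by library, the 5p over 3p quotient was higher in both ASO libraries than in both CRO libraries for 7 of the 21 hairpins, against 17.0% of all 135 hairpins with both arms tested. It was lower in both for 1, against 13.3% of all, and the groups overlapped for 13. The 7 include miR-466b, miR-466c and miR-466p, whose 3p row is the same, and miR-669p, whose 5p row equals that of miR-669a. The others were miR-466h, miR-669h and miR-669l, which share no identical row.

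**Figure D4:**
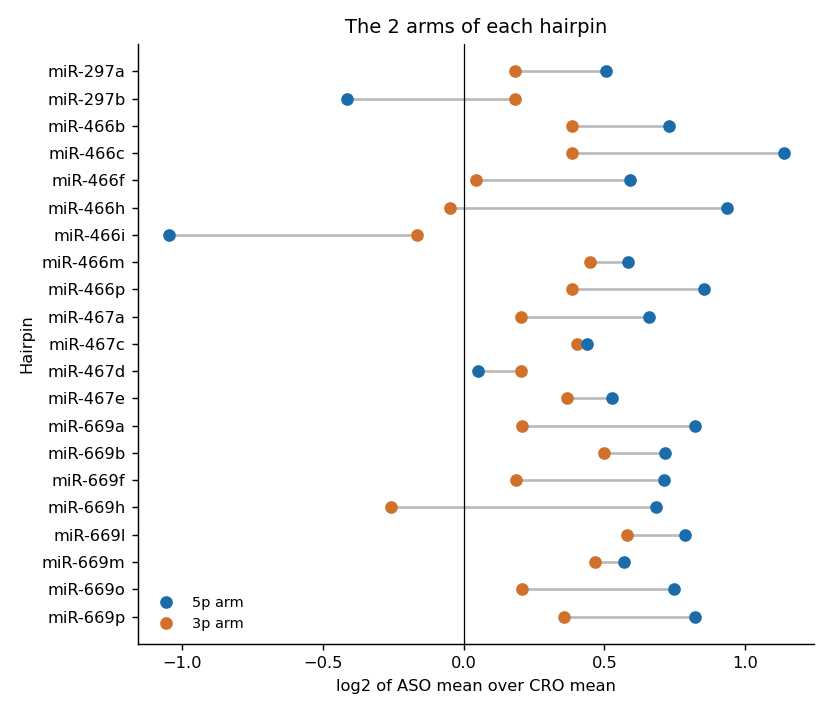
Log2 ratio of the ASO mean over the CRO mean (horizontal axis) of the 5p arm (blue) and the 3p arm (orange) of the 21 hairpins with both arms at a base mean of at least 10. Lines join the arms of a hairpin. The blue point lies to the right of the orange one in 18 hairpins, and to its left in miR-297b, miR-466i and miR-467d.

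Rows with identical group means were read as shared reads. In all, 16 of the 78 rows fell into 7 such sets, and 14 of the 59 tested rows into 6. No row outside the families shared its values with a member. The sets joined different letters of a family. They were miR-669a-3p with miR-669o-3p, miR-466b-3p with miR-466c-3p and miR-466p-3p, miR-467a-5p with miR-467b-5p, miR-297a-3p with miR-297b-3p and miR-297c-3p, miR-669a-5p with miR-669p-5p, and miR-466b-5p with miR-466o-5p. The set with the most reads, miR-669a-3p with miR-669o-3p, held 26127 and 17615 reads in ASO, against 12651 and 4710 in CRO, before scaling for depth. For the miR-297 set the counts were 1042 and 689 in ASO, against 362 and 294 in CRO. Scaled, these were 641 and 485 in ASO, against 463 and 528 in CRO, and they overlapped. The set of miR-466b-5p and miR-466o-5p had scaled counts of 60.9 and 58.4 in ASO, against 39.6 and 32.3 in CRO, which did not overlap (log2 ratio 0.73).

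Sharing joined the arms in different ways. The 5p rows of miR-669a and miR-669p were the same, while their 3p rows were separate, at base means of 13274 and 83.0. For miR-466b and miR-466p it was the 3p rows that were the same, and the 5p rows, at base means of 47.8 and 47.1, were separate. Other rows differed by a few reads. Over the 4 libraries miR-467a-3p and miR-467d-3p were 2 reads apart, miR-466m-5p and miR-669m-5p 1 read apart, and miR-466e-3p and miR-466b-3p 33 reads apart (0.123% of the reads of miR-466e-3p). Rows of this kind cannot be taken as separate measurements of their hairpins.

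Place in the genome was read from RefSeq by gene name. Of the 59 tested rows, 49 had genes within Sfmbt2 only, 5 (the arms of miR-297a, those of miR-466f, and miR-466f without an arm) had copies inside and outside, and 5 had genes outside only. The mean was higher in ASO for 46 of the 49 rows within Sfmbt2, with a median log2 ratio of 0.40. Both ASO libraries were above both CRO libraries for 25 of them, against 23.2% of all miRNAs, and below for none, against 18.7%. The exceptions were miR-297b-5p, miR-669h-3p and miR-466h-3p, all of which overlapped between the groups.

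The 5 rows from outside Sfmbt2 had a median log2 ratio of -0.17, and 1 of the 5 was higher in ASO. miR-466i-5p was the 1 tested row of the families with both ASO libraries below both CRO libraries. It had 46.7 and 45.7 in ASO, against 104.9 and 86.2 in CRO, a log2 ratio of -1.05 (authors' deposited table, raw p under 0.05, adjusted p = 1; limma -1.03 ± 0.30 SE, adjusted p = 0.18). The authors' raw p under 0.05 with a lower ASO mean was found for 4.15% of all miRNAs. The 3p arm of the same hairpin, whose CA repeats are printed above, had 38.1 and 28.1 in ASO, against 38.4 and 35.9 in CRO, and overlapped. miR-466q had 152 and 113 in ASO, against 205 and 98.8 in CRO, and miR-466j had 16.0 and 11.96 in ASO, against 24.3 and 5.39 in CRO. Both overlapped, and for miR-466j the direction turned with the scale, from -0.087 on the means to 0.22 in limma. miR-466k had 48.0 and 34.5 in ASO, against 28.1 and 19.8 in CRO, and was the member outside Sfmbt2 that was higher in ASO without overlap (log2 ratio 0.78). The median of these 5 rows was 0.037 without library b of ASO and 0.42 without library a of CRO, so its sign rests on single libraries. No test compared the rows inside and outside.

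Along Sfmbt2, in the order of the annotation, rows with a higher mean in ASO were found from the first miRNA gene to the last. For the first gene, miR-466m, the log2 ratio was 0.58 for the 5p and 0.45 for the 3p arm. Its 5p row is nearly that of miR-669m-5p, from places 62 and 63, so that value cannot be given a place. At place 72 the 5p arm of miR-669h had 0.68 and the 3p arm -0.26. That 5p row was sparse and overlapped, with 17.8 and 22.5 in ASO against 17.9 and 7.19 in CRO. Between these places the 5p arm of miR-669l at place 8 had 0.79, and that of miR-467c at place 13 had 0.44. Farther along, miR-466p-5p at place 54 had 0.85, while its neighbour miR-467d-5p at place 55 had 0.052. The row with the lowest 5p ratio of the cluster, miR-297b-5p at place 60 (-0.41), was also a sparse one, with 9.84 and 12.7 in ASO against 19.2 and 10.8 in CRO. Hairpins with several copies, such as miR-466b, miR-467a and miR-669a, fill most of the middle of the cluster and cannot be given a place. The same holds for reads of single genes whose rows equal theirs, such as miR-466o-5p, miR-467b-5p and miR-669o-3p.

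**Figure D5:**
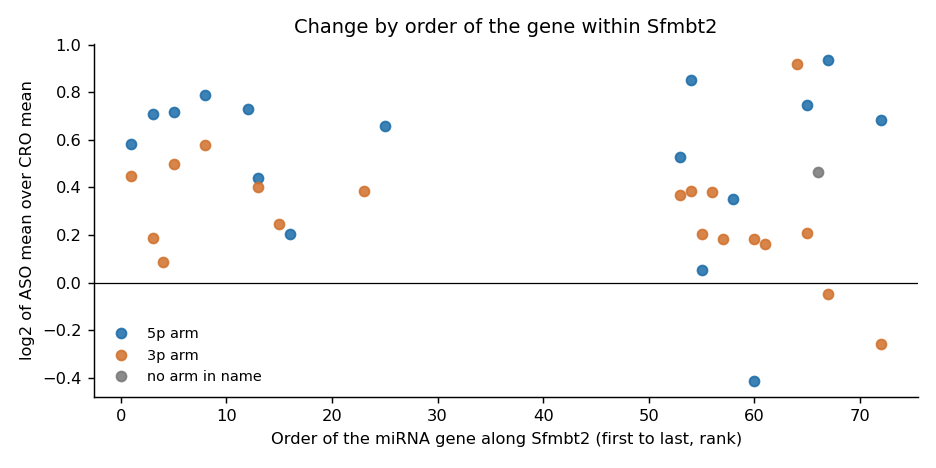
Log2 ratio of the ASO mean over the CRO mean (vertical axis) against the order of the miRNA gene along Sfmbt2 in the RefSeq annotation (horizontal axis, rank 1 to 72), for tested rows with a single gene. Blue points are 5p arms, orange points 3p arms and the grey point a row with no arm in its name. Points above 0 run from rank 1 to rank 72, and the empty middle is taken by hairpins with several copies. Some points equal the row of a hairpin with several copies, as miR-669o-3p does, so their reads need not come from that rank.

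Other miRNAs with the repeats of the printed sequences were set beside the families. Of the tested rows outside the families with a known mature sequence, 4 held UGUGUGU or ACACACA, and their log2 ratios had a median of 0.14. miR-574-5p, the most counted of them, had 784 and 583 in ASO, against 503 and 557 in CRO, and did not overlap (log2 ratio 0.37). The ratio was 0.39 for miR-672-5p, -0.091 for miR-32-3p and -0.13 for miR-1187, and these 3 overlapped.

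The 19 rows below a base mean of 10 had at most 26 reads in a library, and 3 of them were at 0 in a whole group. The mean was higher in ASO for 13 of the 19. Just below the threshold were miR-669d-2-3p, with a base mean of 9.996 and a log2 ratio of 1.74, and miR-466l-3p, with 9.95 and -0.73. Just above it were miR-297b-5p, with 13.1 and -0.41, and miR-669l-3p, with 14.2 and 0.58. At these levels a row can lie on either side by a few reads.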

How the data were processed

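Small RNA was extracted with Trizol and sequenced from TruSeq small RNA libraries, per the labels' protocols. DESeq (version not named) and the build mm9 come from the submitters' processing notes. Not given in the sources used here are the trimming, the aligner, the miRNA annotation and how reads matching several miRNAs were counted.

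Per the file headers, the authors deposited for 1073 miRNAs a normalized signal averaged over all libraries and within each group. They also deposited the fold between groups and its log2, with p-values before and after adjustment. A further deposited table gives the authors' count of differential miRNAs (17 up and 4 down for CRO over ASO). There ASO stands as control and CRO as case. The series' design text has it the other way, with CRO as the control of ASO, and is followed here. The deposited log2 runs CRO over ASO and was turned to ASO over CRO. For all 843 finite values it equals the reversed log2 of the means within 1e-09.

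The fixed design allowed for a count test on libraries, which the group means do not permit, so the authors' p stayed the main call. Each group mean is a sum of 2 whole counts divided by size factors, given to 15 digits, and was decoded into those counts. The decoding was unique for all 78 members. The size factors of ASO were 1.63 and 1.42, those of CRO 0.782 and 0.557, and recomputed median ratios over 636 miRNAs matched them. The decoded libraries carry no replicate number. They were fitted with limma 3.58.1 (trend, robust, pseudocount 1, 482 miRNAs at a base mean of 10 or more, Benjamini-Hochberg adjustment) in R 4.3.3. That pseudocount makes changes of sparse miRNAs look smaller. Decoding and fit were tested on simulated data. Other steps used Python 3.11.15, numpy 2.4.6 and pandas 2.3.3.

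Named rows were the 4 most counted of each family, those with a raw p under 0.05, the 2 highest and 2 lowest ratios, sets with identical values and hairpins with both arms tested. miR-466q, miR-466k and miR-466j were added because their sequences are printed. The members, the lists and the tests were chosen with earlier results of these data known. Alternatives were other floors, pseudocounts and scalings, counting identical or near-identical rows once, keeping rows of genes within Sfmbt2, and leaving out each library. RefSeq (GRCm38.p6) positions served only to place miRNA genes inside or outside Sfmbt2 and to order them, and none is printed, since the authors' build is mm9. No molecular identifiers are named for the reads, so counts can include PCR copies.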

Additional observations from a re-analysis of the deposited data

How the results depend on the processing

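No paired analysis was possible because the deposited columns are group means and the decoded libraries carry no replicate number. With a base mean of at least 50 the mean was higher in ASO for 33 of 35 rows, and it was higher for 50 of 59 with library totals. With these totals the median of all miRNAs was -0.025, against 0.041. Leaving out 1 library at a time, the median log2 ratio ranged from 0.23 to 0.72 over all tested rows. By family it ranged from -0.032 to 0.37 for miR-297 (below 0 without ASO library a). The range was 0.18 to 0.61 for miR-466 (0.59 without ASO library b), 0.090 to 0.72 for miR-467 and 0.22 to 0.78 for miR-669. The median ranged from 0.53 to 0.81 for the 5p and from 0.049 to 0.60 for the 3p arm, the 5p median being the higher in all 11 settings. The 5p ratio was above the 3p ratio in 15 to 18 of the 21 hairpins. It was above in 11 of the 13 sharing no identical row with another of the 21, and in 8 of the 9 sharing no near-identical one. The last count and the comparison by place were chosen after seeing the data. The median of rows inside Sfmbt2 ranged from 0.27 to 0.72, and that of rows outside from -0.63 to 0.42 (-0.40 without ASO library a, 0.037 without ASO library b).

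Rows called numbered 4 at the authors' raw p. In limma they numbered 0 with all libraries and 0 to 7 with 1 left out. The 7, all higher in ASO, appeared without CRO library a (miR-466h-5p, miR-466p-5p, miR-467e-3p, miR-669a-3p, miR-669b-5p, miR-669f-3p and miR-669o-3p), where 13.1% of all 482 miRNAs were called. Without CRO library b 1 was called, namely miR-466i-5p, against 6.43% of all. The lone library is then assumed to vary like the other group.

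Of 530 alternative values for the named rows, 485 kept direction and side of the threshold, 8 passed it anew and 37 turned in sign. With 1 library left out, limma log2 ratios ranged from -0.029 to 0.37 for the miR-297 3p set, -0.73 to 0.047 for miR-297b-5p, -0.64 to 0.52 for miR-466f-3p (-0.23 without CRO library a), -0.20 to 0.13 for miR-466h-3p, -0.39 to 0.037 for miR-466i-3p, -0.77 to 1.22 for miR-466j (0.027 and 0.42 without ASO libraries a and b), -0.64 to 0.40 for miR-466q (0.10 without ASO library b), -0.16 to 0.62 for miR-467a-3p and -0.17 to 0.61 for miR-467d-3p (both -0.078 without ASO library a), -0.34 to 0.54 for miR-467d-5p (-0.11 without ASO library a), -0.054 to 0.85 for miR-467e-3p, -0.20 to 0.74 for miR-669a-3p and miR-669o-3p, -0.37 to 1.02 for miR-669f-3p and -0.69 to 0.15 for miR-669h-3p (0.0077 without CRO library a). miR-466f-3p also turned in the full fit at pseudocounts 1, 0.5 and 10 (-0.062, -0.067 and -0.015), with no floor (-0.062), and with library totals (-0.12) and upper quartile scaling (-0.074). miR-466j turned there likewise (0.22, 0.25 and 0.056; 0.22; 0.18; 0.21). The cause was not tested.

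Depth limits the sparse rows most: CRO library b, the shallowest, held 3300457 counts.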
